A study of Mus musculus with 8 samples.

Results

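The genes described here are 9 genes of cerebellar granule cells: Cbln1, Cbln3, Gabra6, Zic1, Zic2, Neurod1, Reln, Chn2 and Etv1. They were taken by symbol, through their Ensembl identifiers, from a table of 22430 genes read by direct RNA nanopore sequencing of the mouse brain, and all 9 were found and had reads in every library. The RNA came from whole hemispheres of male C57Bl/6JRj mice, 4 young adult animals of 6 months (6m) and 4 aged animals of 24 months (24m), with 1 poly-A library per mouse and no treatment or engineered allele in either group. A hemisphere holds the cerebellum together with the forebrain and brainstem, so every value below is an average over these regions, and fewer cells of a type and less RNA per cell cannot be told apart. The genes were chosen by their known role and with their log2 fold changes at 24m against 6m in these same libraries in view, so their age differences are given as a description without a p-value.

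Granule cells are small excitatory neurons and are by far the most numerous neurons of the mouse cerebellum. Their axons, the parallel fibres, contact the dendrites of Purkinje cells, the output neurons of the cerebellar cortex. Cbln1, Cbln3 and Gabra6 are known mainly from granule cells in the adult brain, Cbln1 less strictly than Cbln3 and Gabra6. They are called the cerebellum-enriched genes below. The other 6 are also known from other places: Zic1 and Zic2 from the olfactory bulb and septum, Neurod1 from the dentate gyrus, Reln from cortical interneurons, and Etv1 from cortical layer 5 and the olfactory bulb.

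The libraries held 573152 to 843706 counts at 6m and 660398 to 1255424 counts at 24m. Levels are given as CPM, the reads of a gene per 1000000 counts of its library, on library sizes scaled by the trimmed mean of M values (TMM). At these depths 1 count was worth 0.778 CPM in the deepest library, 24m replicate 4, and 1.83 CPM in the shallowest, 6m replicate 2, so members with few counts carry a large counting error. Of the 22430 genes, 9375 had a mean count over 5 and were tested, among them all 9 members. A gene is called past the thresholds here when its adjusted p was at most 0.05 and its absolute log2 fold change (log2FC, 24m minus 6m) at least 0.58. In the edgeR quasi-likelihood test 969 genes were higher at 24m and 390 lower, 10.3% and 4.16% of the tested genes. All pairs of libraries differed by more than sampling noise. The library 24m replicate 1 stood apart from the other aged libraries (chi-square per degree of freedom over genes 2.82 to 4.10, against 1.30 to 1.98 among those 3). Where the members' log2FC or their correlations with each other rest on it, they are given with and without it. Correlations with summed lists are given with it only.

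The sequence just upstream of the annotated start was read for each member, since NFI factors are known regulators of genes of maturing granule cells. The 250 bases before the start of Cbln1 (GRCm39 chr8:88199262-88199511, minus strand, overlapping an exon of Gm19872 on the other strand) and of Gabra6 (GRCm39 chr11:42211911-42212160, minus strand, with no annotated exon) are printed 5′ to 3′ to show how unlike these 2 promoters are, with the short NFI motif TTGGC, or GCCAA where it lies on the other strand, in capitals.
Cbln1: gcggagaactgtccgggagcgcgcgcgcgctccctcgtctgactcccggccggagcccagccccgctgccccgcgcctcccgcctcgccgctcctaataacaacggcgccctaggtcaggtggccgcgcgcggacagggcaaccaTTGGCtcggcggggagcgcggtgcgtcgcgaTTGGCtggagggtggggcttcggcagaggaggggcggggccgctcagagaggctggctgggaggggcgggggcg
Gabra6: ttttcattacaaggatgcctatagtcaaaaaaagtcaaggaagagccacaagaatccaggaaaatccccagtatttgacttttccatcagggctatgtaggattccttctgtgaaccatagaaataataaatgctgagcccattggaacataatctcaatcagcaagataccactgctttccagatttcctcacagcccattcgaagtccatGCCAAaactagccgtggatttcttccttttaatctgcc
The Cbln1 window was 76% G and C and held the motif 2 times, and the Gabra6 window was 40.8% G and C and held it 1 time, against a median G and C content of 53.2% over 21571 protein-coding promoters of the same length. The short motif was found in 6 of the 9 members, namely Cbln1, Cbln3, Gabra6, Zic1, Zic2 and Neurod1, and in 43.3% of all promoters. The full palindrome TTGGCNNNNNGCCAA, which contains the short motif on both strands, was in none of the 9 and in 0.0325% of all promoters. Of the E-box motifs read by proteins such as Neurod1, CAGATG was in the Neurod1 window alone among members (13% of all promoters) and CAGCTG in the Zic2 window alone (11.9% of all promoters). The windows of Cbln3, Zic1 and Neurod1 lie in exons of these or overlapping genes and are not printed.

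Cbln1 (ENSMUSG00000031654, GRCm39 chromosome 8, 88195033 to 88199261, minus strand) encodes the secreted synapse organizer cerebellin 1, which holds together the contacts between parallel fibres and Purkinje cells. Cbln1 stood at 106, 29.3, 61.8 and 64.9 CPM in 6m replicates 1 to 4 and at 129.9, 132, 113 and 87.9 CPM in 24m replicates 1 to 4. The ages overlapped, with 3 of 4 aged libraries above every young adult library, while 6m replicate 1 lay above 24m replicate 4. Averaged by age (here and below ± SD, n = 4 libraries), Cbln1 was at 65.6 ± 31.5 CPM in young adult and 115.6 ± 20.3 CPM in aged mice, a log2FC of 0.76 (SE 0.213) that was past the thresholds. Within 6m the highest library was 3.62 times the lowest, and the counts behind them were 85 and 16. Without 6m replicate 2, the shallowest library, the log2FC of Cbln1 was 0.57 and under the fold threshold. DESeq2 gave 0.81 for Cbln1 and did not call it.

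Cbln3 (ENSMUSG00000040380, chromosome 14, 56116370 to 56121849, minus strand) encodes a cerebellin that is secreted together with Cbln1. It was the scarcest member with 58 counts in all 8 libraries. Cbln3 had 4, 1, 4 and 2 counts at 6m and 5, 17, 16 and 9 counts at 24m, or 4.99, 1.83, 5.05 and 2.55 CPM against 7.73, 17.9, 20.8 and 7.0 CPM. The ages did not overlap in CPM, and by counts the nearest libraries were 24m replicate 1 with 5 and 6m replicates 1 and 3 with 4 each. The means of 3.61 ± 1.66 and 13.4 ± 7.02 CPM gave Cbln3 the widest difference of the 9, a log2FC of 1.76 (SE 0.483), past the thresholds. With quantile normalization and limma-voom it was 1.28 and no longer called. Exons of Cbln3 overlap Khnyn on the opposite strand, and the strand setting of the counting was not stated. Khnyn had 2, 4, 0 and 2 counts at 6m and 4, 7, 10 and 7 at 24m. Its levels overlapped between the ages through 6m replicate 2 alone, at 7.33 CPM against 5.44 to 12.98 CPM at 24m. The part of shared reads in the Cbln3 difference was not tested.

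Gabra6 (ENSMUSG00000020428, chromosome 11, 42197264 to 42211910, minus strand) encodes the alpha6 subunit of the GABA-A receptor, which in granule cells answers the inhibition from Golgi cells. Gabra6 was at 17.5, 12.8, 10.1 and 16.6 CPM at 6m and at 13.9, 30.6, 23.4 and 23.3 CPM at 24m. Here 3 aged libraries lay above all young adult ones and 24m replicate 1 lay among them. The means were 14.2 ± 3.41 and 22.8 ± 6.83 CPM, a log2FC of 0.70 (SE 0.291) that did not pass the thresholds. Without 24m replicate 1 it was 0.84 and passed.

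**Figure D1:**
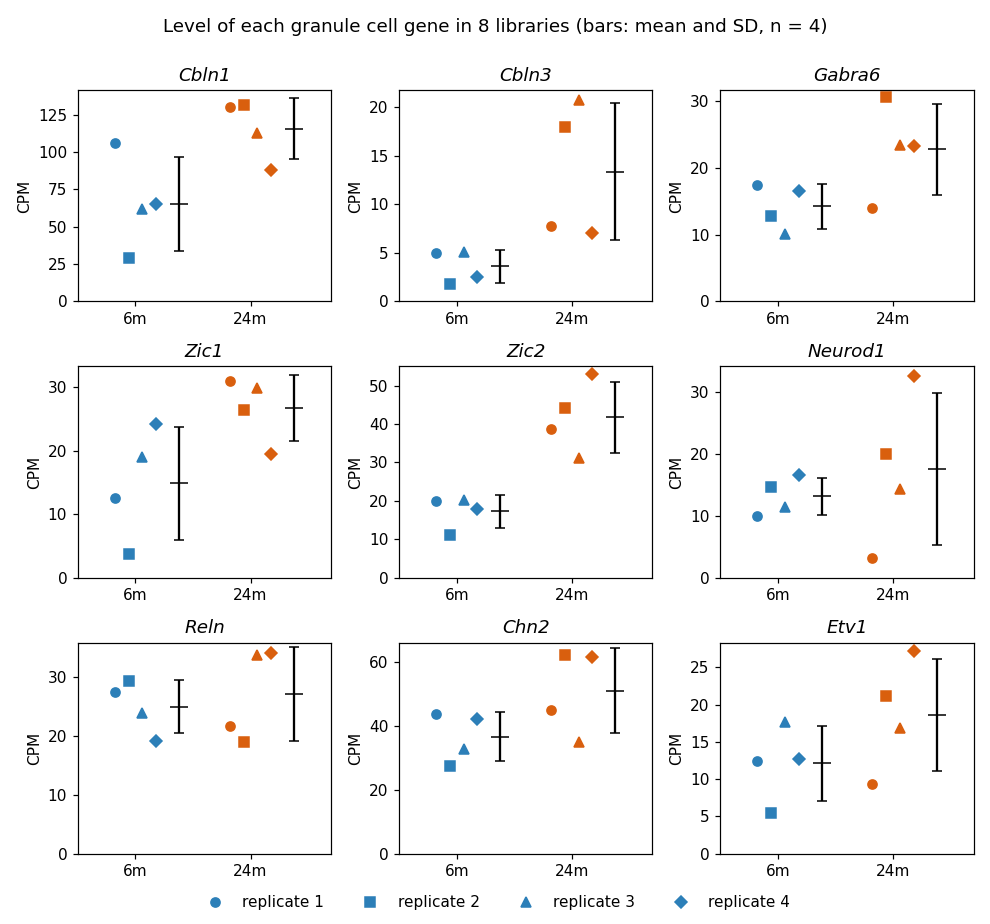
Level of each of the 9 genes (CPM, vertical axes from 0) in the 4 young adult (6m, blue) and 4 aged (24m, orange) libraries, with the marker shape giving the replicate number and the bar the mean and SD. Cbln3 and Zic2 show no overlap between the ages, Cbln1 in 6m replicate 2 sits at 29.3 CPM, and Neurod1 in 24m replicate 1 sits at 3.09 CPM, below every other library.

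Zic1 and Zic2 encode zinc finger transcription factors that keep granule cell precursors in number and act in their maturation. Zic2 (ENSMUSG00000061524, chromosome 14, 122711827 to 122717264, plus strand) had 19.97, 11, 20.2 and 17.8 CPM at 6m and 38.7, 44.3, 31.1 and 52.9 CPM at 24m. Every aged library lay well above every young adult one. The means of 17.2 ± 4.30 and 41.7 ± 9.18 CPM gave a log2FC of 1.27 (SE 0.238), past the thresholds, and Zic2 stayed past them with every scaling, filter, test and left-out library tried. Its log2FC over these settings ran from 1.11 to 1.38.

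Zic1 (ENSMUSG00000032368, chromosome 9, 91240111 to 91247863, minus strand) had 12.5, 3.67, 18.9 and 24.2 CPM at 6m and 30.9, 26.4, 29.8 and 19.4 CPM at 24m. The young adult libraries spread 6.60-fold, from 2 counts in replicate 2 to 19 in replicate 4, and 24m replicate 4 fell within their range. The log2FC of Zic1 was 0.72 (SE 0.314) and did not pass, with means of 14.8 ± 8.84 and 26.6 ± 5.18 CPM, and without 6m replicate 4 it was 1.05 and passed. Without 6m replicate 2 it was 0.49, and 0.40 without both 6m replicate 2 and 24m replicate 1. Exons of Zic1 overlap its neighbour Zic4 on the opposite strand, which had 2 to 9 counts at 6m and 3 to 4 at 24m.

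Neurod1 (ENSMUSG00000034701, chromosome 2, 79282865 to 79287294, minus strand) encodes a basic helix-loop-helix factor that granule cells need to differentiate and survive. Neurod1 stood at 9.99, 14.7, 11.4 and 16.6 CPM at 6m and at 3.09, 20.03, 14.3 and 32.7 CPM at 24m. The young adult libraries lay close together, and the aged ones spread 10.6-fold, from 2 counts in replicate 1 to 42 in replicate 4. The means of 13.1 ± 3.01 and 17.5 ± 12.3 CPM gave a log2FC of 0.57 (SE 0.391) for Neurod1, short of the thresholds. This value rested on single aged libraries: it was 0.86 and past the thresholds without 24m replicate 1, and 0.033 without 24m replicate 4. The same-strand neighbour Cerkl, whose exons overlap Neurod1, had at most 3 counts in a library.

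Etv1 (ENSMUSG00000004151, chromosome 12, 38828851 to 38920483, plus strand) encodes an ETS transcription factor that switches on genes of mature granule cells. Etv1 had 12.5, 5.50, 17.7 and 12.7 CPM at 6m and 9.28, 21.1, 16.9 and 27.2 CPM at 24m. The ages overlapped, with 2 aged libraries above all young adult ones and 24m replicate 1 below most of them. The log2FC of Etv1 was 0.65 (SE 0.339) from means of 12.1 ± 5.0 and 18.6 ± 7.54 CPM, not past the thresholds, and 0.83 and past them without 24m replicate 1, but 0.38 without 24m replicate 4.

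Reln (ENSMUSG00000042453, chromosome 5, 22089452 to 22549700, minus strand) encodes reelin, a large secreted glycoprotein that directs where neurons settle and that granule cells release. It showed the smallest difference of the 9. Reln stood at 27.5, 29.3, 24.0 and 19.1 CPM at 6m and at 21.7, 19.0, 33.7 and 34.2 CPM at 24m, so 2 aged libraries lay above and 2 within or below the young adult range. The log2FC of Reln was 0.16 (SE 0.249), with a 95% interval from -0.32 to 0.65, and the means were 25.0 ± 4.50 and 27.1 ± 7.97 CPM. Unlike Cbln1 and Cbln3, Reln was not low in 6m replicate 2, which was its highest young adult library.

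Chn2 (ENSMUSG00000004633, chromosome 6, 54016483 to 54278796, plus strand) encodes beta-chimaerin, a protein that turns off the small GTPase Rac. Chn2 had 43.7, 27.5, 32.8 and 42.0 CPM at 6m and 44.9, 62.2, 35.0 and 61.4 CPM at 24m. In Chn2 3 aged libraries lay above all young adult ones, 24m replicate 1 only narrowly, and 24m replicate 3 lay among them. The means of 36.5 ± 7.67 and 50.9 ± 13.3 CPM gave a log2FC of 0.49 (SE 0.201), under the fold threshold, and it was 0.63 and past both thresholds without 24m replicate 3.

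Levels of different members can be set side by side per kilobase of exon, although direct RNA reads start at the poly-A end of each molecule, so that counts need not grow with length and this scale lowers long genes such as Reln (11.7 kb). At 6m Cbln1 led with 23.2 CPM per kb, followed by Chn2 at 10.2, Gabra6 at 5.70, Zic2 at 4.98 and Neurod1 at 4.81 CPM per kb. Zic1 at 2.64, Reln at 2.14, Etv1 at 1.84 and Cbln3 at 0.741 CPM per kb were lower. Among these, the neighbours Gabra6, Zic2 and Neurod1 differed by less than the spread between young adult libraries, and so did Zic1, Reln and Etv1. At 24m Zic2, at 12.1 CPM per kb, stood above Gabra6 at 9.12, and Cbln3, at 2.74, stood beside Etv1 at 2.83 and above Reln at 2.32 CPM per kb.

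Together, 3 of the 9 members were past the thresholds, all higher at 24m (Cbln1, Cbln3 and Zic2), against 14.5% of the 9375 tested genes in either direction and 10.3% higher. In 2 members, Cbln3 and Zic2, the ages did not overlap, against 21.1% of tested genes in either direction and 11.2% with the aged libraries above. The log2FC was above 0 in 9 of 9 members and in 49.7% of tested genes, and its median was 0.70 in the members and -0.0032 over all tested genes. The choice of the members used this comparison, so nothing is read from these shares. Among the 6484 tested genes within the members' range of mean count, 7.25 to 76.25, the median was 0.029 and 11.5% were called higher. The log2FC stayed above 0 in all 9 under TMM, RLE and upper quartile scaling and with library sizes alone. Library sizes alone moved the median of all tested genes to 0.10, to which the median of 0.81 for the members is to be compared.

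**Figure D2:**
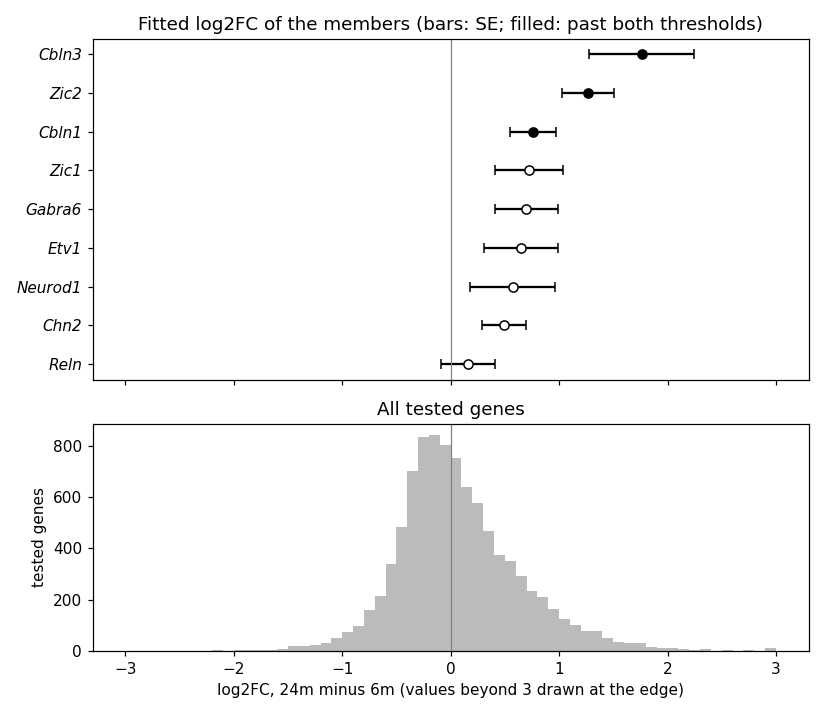
Upper panel: log2FC (24m minus 6m) of each of the 9 genes with its SE from the edgeR fit, filled where past both thresholds. Lower panel: number of the 9375 tested genes at each log2FC, where the members lie between 0.16 (Reln) and 1.76 (Cbln3) and the median of all tested genes is -0.0032.

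Co-variation from library to library was examined next, with the mean of each age subtracted from log2 CPM so that the age difference itself does not enter. All correlations are over 8 libraries that share these age means, depth and tissue pieces, and are given as descriptions. The summed level of Cbln1, Cbln3 and Gabra6 was 129, 44.0, 77.0 and 84.0 CPM at 6m and 152, 180.3, 157 and 118 CPM at 24m. The ages overlapped in this sum, since 6m replicate 1 lay above 24m replicate 4. It was lowest in 6m replicate 2 and highest in 24m replicate 2. Cbln1 made up 66.7 to 85.7% of the counts in this sum.

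Libraries tended to be high or low in several members at once. In 6m replicate 2, the shallowest library, 7 of 9 members lay below the mean of their age, and it was the lowest of all 8 libraries for 6 of them (Cbln1, Cbln3, Zic1, Zic2, Chn2 and Etv1). In 24m replicate 1, the shallowest aged library, 7 of 9 also lay below, with Cbln1 and Zic1 above. In 24m replicate 2, 8 of 9 lay above the mean of their age, with Reln the exception. The part of depth in this was not tested. Without both of these shallow libraries, Cbln3 and Zic2 were past the thresholds and Cbln1 was not, at a log2FC of 0.49.

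Over the 36 pairs of members the median Pearson r of the deviations was 0.31, with 26 pairs above 0 and 10 below, and a range from -0.53 to 0.83. Over all pairs of the 6484 tested genes of like counts the median was -0.00015. Without 24m replicate 1 the members' median was 0.14, with 21 pairs above 0. The highest values were between Zic2 and Chn2 (r = 0.83, rho = 0.74) and between Zic2 and Etv1 (r = 0.78, rho = 0.90). The 3 pairs within the cerebellum-enriched genes were all above 0. They were 0.51 for Cbln1 with Cbln3, 0.38 for Cbln3 with Gabra6 and 0.23 for Cbln1 with Gabra6. Without 24m replicate 1 these were 0.65, 0.090 and 0.53. Cbln1 followed Zic1 by r (0.68) but less by rank (rho = 0.33).

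Reln and Neurod1 had the lowest values against the cerebellum-enriched genes as a set. Against the mean log2 CPM of Cbln1, Cbln3 and Gabra6, the deviations of Zic1 had an r of 0.50, those of Etv1 0.46, Chn2 0.34 and Zic2 0.31. Neurod1 had 0.054 and Reln -0.22. Neurod1 against these genes depended on 24m replicate 1: without it r was -0.69, against Cbln3 alone it went from 0.022 to -0.93, and against Gabra6 alone from 0.66, the highest value of Gabra6 with any member, to -0.0058. The lowest pair of all was Zic1 with Reln, at -0.53.

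**Figure D3:**
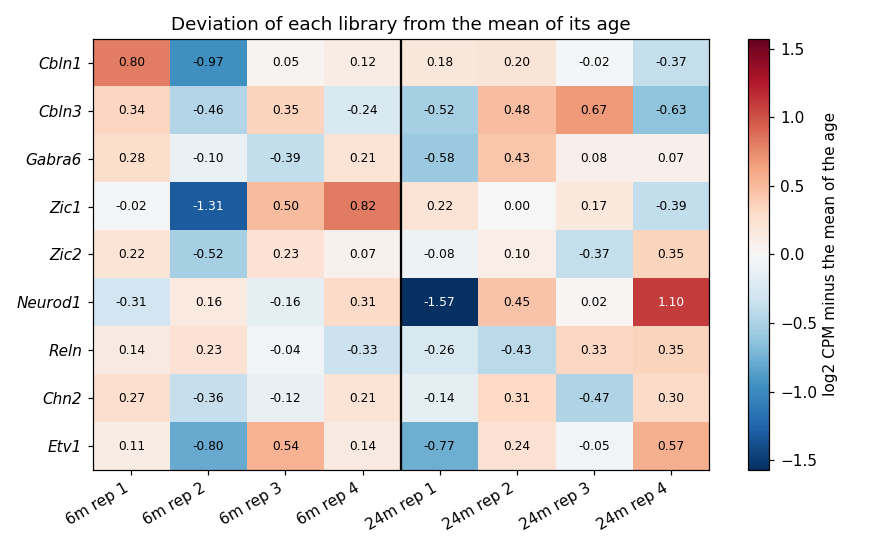
Log2 CPM of each of the 9 genes (rows) in each library (columns) minus the mean of its age, with red for above and blue for below that mean and the value printed in each cell. The columns of 6m replicate 2 and 24m replicate 1 are mostly blue, with the lowest values for Zic1 (-1.31) and Neurod1 (-1.57).

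The tested genes most like the pattern of the cerebellum-enriched genes were looked for among 5148 genes with a mean count over 20. By r of the deviations, the 8 highest included Ube2ql1 (0.98), Dxo (0.97), Iqsec1 (0.95), Jun (0.95), Eefsec (0.94), Rita1 (0.93) and Golga2 (0.92). These are the extremes of many candidates over 8 libraries. Ube2ql1, which encodes an enzyme of the ubiquitin-conjugating family, was also among the closest by plain levels (rank 12 of 5148, r = 0.95). It had 102, 73.3, 90.9 and 89.1 CPM at 6m and 155, 203, 188 and 165 CPM at 24m, with no overlap between the ages. The other 7 ranked 249 to 2646 by levels, and Dxo had a log2FC of -0.70, while Golga2 and Jun had an r of 0.82 and 0.71 by levels. Without 24m replicate 1, 2 of the 8 were still among the 8 highest.

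Other genes known from granule cells, which are not among the 9, were then examined. All 20 such genes had counts, and Fat2 and Grin2c were among those with counts in every library. Of the 20, 12 were tested, and 2 were higher at 24m, 1 was lower and 9 did not pass, with a median log2FC of 0.16. Kcnc1, a fast potassium channel subunit, rose from 52.6 ± 10.2 to 83.8 ± 7.94 CPM, a log2FC of 0.67 (SE 0.161, edgeR adjusted p = 0.0041), with no overlap between the ages. Cntn2, an adhesion protein of growing parallel fibres, rose from 1.90 ± 1.64 to 12.1 ± 5.49 CPM, a log2FC of 2.38 (SE 0.585, edgeR adjusted p = 0.0050), again with no overlap. Nfix, an NFI transcription factor, fell by 1.43 on the log2 scale (SE 0.415, edgeR adjusted p = 0.016), from 10.5 ± 1.73 to 3.90 ± 1.26 CPM. Cntn2 and Nfix rest on few counts, with means of 5.75 and 5.62 per library. Both passed the filter of a mean count over 5 through the age where they were high, and both were also called with no filter. Kcnc1 was called in all 19 alternative fits, while Cntn2 was lost with limma-voom and without 24m replicate 2 or 3, and Nfix with DESeq2 and without 6m replicate 1. Neither was called with a mean count over 20 or with edgeR's own filter.

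Genes of this list that are known from mature granule cells, though not all from them alone, lay on both sides of 0. Fat2, a cadherin of parallel fibres, had a log2FC of 0.76 (SE 0.341, edgeR adjusted p = 0.11), from 11 ± 6.42 to 19.96 ± 3.25 CPM. Gabrd, the delta subunit that pairs with Gabra6, had -0.23 (SE 0.135, edgeR adjusted p = 0.23), and Grin2c, an NMDA receptor subunit of mature granule cells, had -0.064 (SE 0.163, edgeR adjusted p = 0.82). Kcnd2 had 0.93 (SE 0.345), Mab21l1 0.93 (SE 0.478) and Pax6 0.34 (SE 0.429), while Tiam1 had -0.48 (SE 0.190), Calb2 -0.25 (SE 0.121) and Cadps2 -0.014 (SE 0.182), and none of these 6 passed. The summed level of the 20 genes overlapped between the ages, at 671 to 839 CPM at 6m and 674 to 801 CPM at 24m. Calb2 and Gabrd weighed most in it, with mean counts of 205 and 115 per library against 13.1 for Fat2. The sum therefore says little about the scarcer genes. Within ages Fat2 followed Cbln1 (r = 0.88, rho = 0.76). Fat2 had 2 counts, 3.67 CPM, in 6m replicate 2 and 16.2 CPM in 6m replicate 1. Against the summed level of the 20 genes, the r within ages was 0.81 for Cbln1, 0.65 for Zic1, 0.49 for Chn2 and 0.33 for Zic2. It was 0.21 for Gabra6, 0.17 for Cbln3, -0.017 for Etv1, -0.44 for Neurod1 and -0.74 for Reln.

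Of 9 tested genes for cerebellin relatives and receptors, 1 was lower at 24m, none was higher and 8 did not pass. Nrxn2 had a log2FC of 0.35 (SE 0.131) and Nrxn3 -0.34 (SE 0.301). The relatives Cbln2, at 0.38 (SE 0.389), and Cbln4, at 0.94 (SE 0.421), did not pass. The median of the list was 0.26.

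Among 12 GABA-A receptor subunits 8 were tested and 1 passed, Gabra3, with a log2FC of 1.17 (SE 0.396, edgeR adjusted p = 0.036) and overlapping ages, which was lost with DESeq2, with limma-voom and without any 1 of 4 libraries (6m replicates 1 and 4, 24m replicates 2 and 4). The median of the 8 was 0.33. Of 10 reelin pathway genes 8 were tested, and 2 rose and 1 fell. Cdk5r1, the activator of the kinase Cdk5, rose from 9.4 ± 1.75 to 39.8 ± 14.3 CPM (log2FC 2.04, SE 0.301, edgeR adjusted p = 3.0e-05), and was called in all 19 alternative fits. The adaptor Crk had a log2FC of 1.38 (SE 0.410, edgeR adjusted p = 0.018), and Pafah1b1, a regulator of the motor dynein, fell by 0.63 on the log2 scale (SE 0.228, edgeR adjusted p = 0.049). Crk was lost with DESeq2 and without 6m replicate 1, 6m replicate 4 or 24m replicate 2, and Pafah1b1, at the threshold, was kept in 5 of 19 alternative fits. The reelin receptor Vldlr, at 0.34 (SE 0.383), and the adaptor Dab1, at 0.034 (SE 0.320), did not pass.

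Of 10 relatives and partners of Neurod1, Etv1 and Chn2, 9 were tested, and 2 rose and 1 fell. Etv5 had a log2FC of 1.36 (SE 0.345, edgeR adjusted p = 0.0062), and the GTPase Rac1, the target of Chn2, had 0.82 (SE 0.156, edgeR adjusted p = 0.00055). Epha4, a receptor that signals through chimaerins, fell by 1.96 on the log2 scale (SE 0.457, edgeR adjusted p = 0.0033). It was lost without 6m replicate 3, where the tested genes of the list went from 9 to 8. Epha4 was also not called with edgeR's own filter or a mean count over 20, and was called with no filter. Chn1, the close relative of Chn2, had -0.16 (SE 0.096) and Etv4 0.22 (SE 0.385), and neither passed. Neurod2, at 0.81 (SE 0.309), did not pass either, and Neurod6 was at 0.00085 (SE 0.207).

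Purkinje cells, the targets of the parallel fibres, were read through 17 genes, of which 15 were tested, 4 were higher at 24m and none lower, with a median log2FC of 0.26. Rgs8 had a log2FC of 1.14 (SE 0.345, edgeR adjusted p = 0.019), Ppp1r17 0.94 (SE 0.265, edgeR adjusted p = 0.013), Homer3 0.74 (SE 0.207, edgeR adjusted p = 0.013) and Car8 0.72 (SE 0.180, edgeR adjusted p = 0.0054). Car8 was called in all 19 alternative fits, Homer3 was lost without 24m replicate 1, Ppp1r17 with DESeq2, and Rgs8 with DESeq2, with limma-voom and without 24m replicate 2 or 3. At an unadjusted p under 0.05 there were 6 of the 15. Pcp2, the most specific marker of the list, had 558, 372, 274 and 413 CPM at 6m and 671, 474, 410.1 and 359 CPM at 24m, with a log2FC of 0.23 (SE 0.163, edgeR adjusted p = 0.35). The summed level of the list, carried mostly by Aldoc, Pcp4 and Pvalb, which other cells also express, overlapped between the ages at 5109 to 6361 and 4848 to 6398 CPM. Within ages Cbln1 followed Pcp2 with an r of 0.53 (rho = 0.67), Car8 with 0.57, Slc1a6 with 0.86, Ppp1r17 with 0.67, Calb1 with 0.26 and Itpr1 with 0.22. Against the summed level of the list, Cbln1 had an r of 0.69, Cbln3 -0.12 and Gabra6 -0.18.

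Of 5 Bergmann glia genes 1 rose, Gdf10, with a log2FC of 0.99 (SE 0.288, edgeR adjusted p = 0.016), and the summed level of the list did not overlap, at 520 to 589 CPM at 6m and 599 to 685 CPM at 24m. Septin4 made up most of this sum, with a mean of 340 counts per library and a log2FC of 0.16 (SE 0.096). The median log2FC of the 5 was 0.16, with 3 above 0. Gdf10 was lost without 6m replicate 3 or 24m replicate 2. Of 10 genes of other cerebellar neurons 3 were tested and none passed in edgeR, DESeq2 or limma-voom. At an unadjusted edgeR p under 0.05 there was 1. Grm2 was called lower by edgeR with a replicate block and without 24m replicate 2. The share of cerebellum in each dissected piece was not measured apart from these genes.

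Markers at the other end of the hemisphere varied against Cbln1. The summed level of 8 olfactory bulb genes was 68.6, 143, 168 and 81.5 CPM at 6m and 88.2, 88.6, 92.1 and 152 CPM at 24m. It was high in 6m replicates 2 and 3 and in 24m replicate 4. Against Cbln1 its deviations had an r of -0.72 (rho = -0.74), against Gabra6 -0.43 and against Cbln3 -0.31. Among the other members r was -0.39 for Zic1, -0.27 for Chn2, 0.014 for Zic2, 0.19 for Etv1, 0.35 for Neurod1 and 0.39 for Reln. Of the 8 olfactory bulb genes 4 were tested, 1 rose (Synpr) and 1 fell (Doc2g), and Tbx21 was at 0 in every library. DESeq2 called none of the 4, with 1 at its unadjusted p under 0.05. Synpr was also lost without 6m replicate 1, and Doc2g with limma-voom and without 6m replicate 3 or 24m replicate 2. Doc2g, a gene of mitral and tufted cells, had 9.99, 53.2, 63.1 and 24.2 CPM at 6m and 7.73, 4.22, 6.49 and 25.7 CPM at 24m, with an r of -0.76 to Cbln1. The part of dissection in the levels of Cbln1 was not tested.

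**Figure D4:**
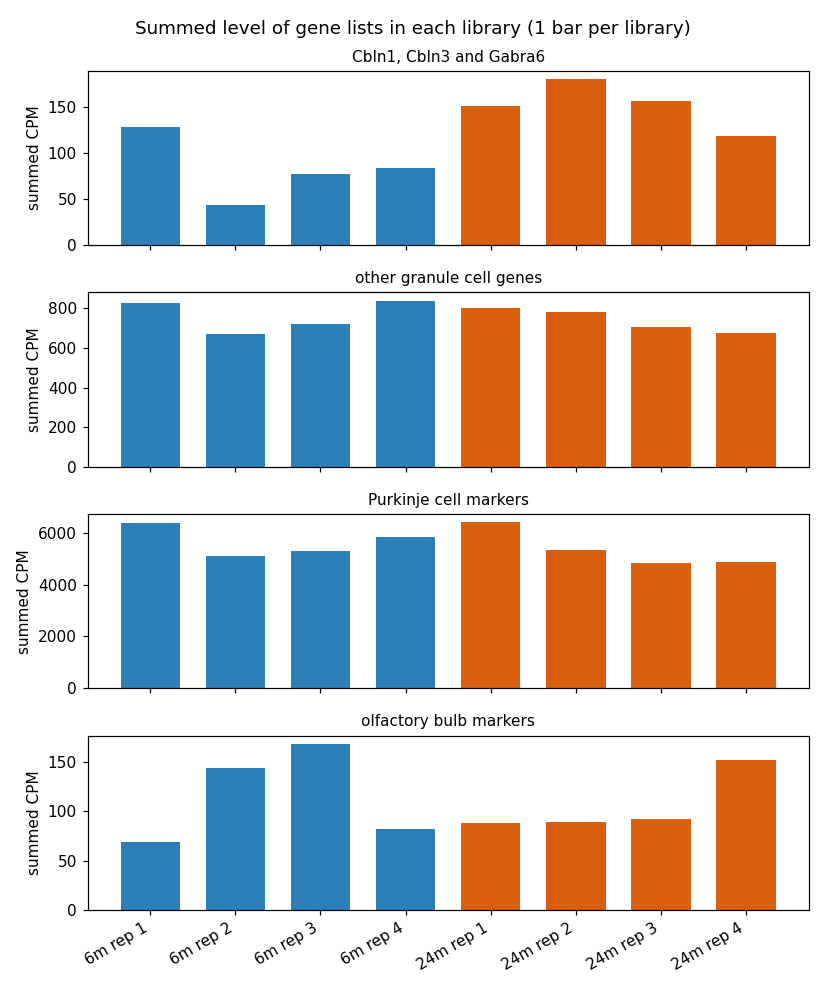
Summed CPM in each library (1 bar per library, blue 6m, orange 24m, axes from 0) of Cbln1, Cbln3 and Gabra6, of 20 other granule cell genes, of 17 Purkinje cell genes and of 8 olfactory bulb genes. The top panel is lowest in 6m replicate 2 (44.0 CPM) and highest in 24m replicate 2 (180.3 CPM), and the bottom panel is highest in 6m replicate 3 (168 CPM).

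Markers of other cells also moved with age, and these values stand beside the age differences of the members. The summed levels of 6 astrocyte genes (265 to 344 CPM at 6m, 441 to 564 at 24m), 6 oligodendrocyte genes (1174 to 1271 and 1483 to 1691 CPM), 7 microglia genes (558 to 625 and 679.8 to 874 CPM) and 7 pan-neuronal genes (2420.2 to 2568 and 2871 to 2893 CPM) did not overlap and were higher at 24m. That of 6 endothelial genes did not overlap either and was lower at 24m (1098 to 1206 and 808 to 953 CPM). Bsg made up most of this endothelial sum, with a mean of 711.5 counts per library. Of the tested genes, 3 of 5 rose and 1 fell in astrocytes, with Gfap at a log2FC of 1.94 (SE 0.168, edgeR adjusted p = 5.0e-08). In oligodendrocytes 1 of 6 rose, in microglia 1 of 5 (Tmem119) and among pan-neuronal genes 1 of 7 (Snap25), and none of 4 endothelial genes passed in edgeR or DESeq2 (2 at an unadjusted edgeR p under 0.05), with Ly6c1 called lower by limma-voom. By edgeR adjusted p without the fold threshold, 4 oligodendrocyte and 2 microglia genes were higher, and 5 pan-neuronal genes were higher and 1 lower. Of all tested genes 21.7% passed in this way. Ly6c1 and Bsg, named after their values were seen, had log2FC of -0.578 and -0.43 with edgeR adjusted p of 0.015 and 0.00096, short of the fold threshold, and edgeR called Ly6c1 lower without 6m replicate 2, 6m replicate 3, 24m replicate 1 or 24m replicate 3. DESeq2 called neither Snap25 nor Tmem119, and Tmem119 was also lost without 6m replicate 3 or 24m replicate 3. All 5 blood genes fell, with summed levels of 6176 to 10171 CPM at 6m and 3398 to 6375 CPM at 24m, which overlapped. Alas2 was kept in 9 of 19 alternative fits, with DESeq2 among the losses, and Hba-a1 and Hba-a2 were lost with limma-voom. None of the 3 tested choroid plexus genes passed in edgeR, DESeq2 or limma-voom, with 2 at an unadjusted edgeR p under 0.05. Folr1 was called lower by edgeR with no filter, with a replicate block and without 6m replicate 3 or 24m replicate 1. The part of these cells in the members' levels was not tested.

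In neurons of other regions, 3 of 12 tested cortical genes rose (Ddn, Nptx1 and Tbr1) and none fell, with a median log2FC of 0.31, and of these Ddn alone was called in all 19 alternative fits. Of 8 tested striatal genes 1 rose, and the 1 tested hindbrain and midbrain gene, Slc6a3, rose and was kept in 9 of 19 alternative fits. None of 3 tested dentate granule cell genes and none of 2 tested thalamic genes passed in edgeR, DESeq2 or limma-voom. At an unadjusted edgeR p under 0.05 there were 1 and 0, and the medians were -0.0061 and -0.21. Of the dentate genes, C1ql3 was called higher by edgeR without 24m replicate 1. The dentate list was read because Neurod1 and the name granule cell are shared with it. Its summed levels were 51.3 to 68.8 CPM at 6m and 52.6 to 81.8 CPM at 24m. Within ages these had an r of 0.69 with Gabra6, 0.58 with Cbln3, 0.47 with Neurod1 and 0.33 with Cbln1. Against the mean log2 CPM of Cbln1, Cbln3 and Gabra6 the r was 0.66. The summed level of the other granule cell genes had 0.54 there, that of the Purkinje list 0.21 and that of the olfactory bulb list -0.64. These list values were not computed without 24m replicate 1. Of the genes that carry the Purkinje sum, Aldoc went from 0.12 to 0.77 without it, Pvalb from 0.20 to 0.79 and Pcp4 from 0.12 to -0.12. In the granule cell list Calb2 went from 0.44 to 0.70 and Gabrd from 0.52 to 0.76, and in the dentate list C1ql2 from 0.69 to 0.64.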

How the data were processed

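Whole hemispheres of 8 male mice were read by direct RNA nanopore sequencing. Per the labels and methods, reads were aligned with minimap2 2.24 to GRCm39 and counted per gene with featureCounts. Its strand and overlap settings are not given in the sources used here, and the labels name a cDNA kit where the methods describe direct RNA; the methods were followed. The deposited values are raw counts that the authors had not yet filtered or normalized, so the authors' later normalization does not touch them.

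Groups came from the labels (4 libraries per age, 1 mouse each). Of 22430 gene identifiers, 22281 were matched to symbols in GENCODE and 5754 had no count in any library. Testing was limited to genes whose mean count exceeded 5 and used edgeR 4.0.16 (glmQLFit, glmQLFTest, TMM factors, age as the term, Benjamini-Hochberg over all tested genes) in R 4.3.3; SE is the absolute log2FC divided by the square root of F. Log2 CPM used a prior count of 2. Alternatives were other scalings, filters, DESeq2 1.42.0, limma 3.58.1, a replicate term and left-out libraries. The code was tested on simulated data. Promoters were read from the GRCm39 genome and GENCODE gene starts. All 9 members are named; in the other 21 lists, genes past both thresholds and tested genes of the granule cell and pathway lists, and for likeness the 8 highest. Values of Pcp2, Slc1a6, Fat2 and Doc2g against Cbln1 were chosen after values were seen. Folr1, Grm2 and C1ql3 are named for their calls in alternative fits. Some further genes are named because they carry much of a summed level. The members and lists were chosen with earlier results of these data known. A few genes that the naming rule covers are not reported here.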

Additional observations from a re-analysis of the deposited data

Results flagged for a closer look

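In 24m replicate 4 the summed level of 7 thalamic genes was 70.8 CPM, where the other aged libraries lay between 94.3 and 98.6 CPM, a gap of 0.846 of the whole range. In the same library the summed level of 8 olfactory bulb genes was 152 CPM, where the others lay between 88.2 and 92.1 CPM, a gap of 0.937 of the range. Both gaps are above Dixon's 95% critical value for 4 samples. This library was also the lowest aged library for Cbln1, Cbln3 and Zic1 and the highest for Zic2, Neurod1, Reln and Etv1. Of 62 groups of 4 libraries examined (the 9 genes and the summed levels, at each age) 2 were singled out this way, and chance gives about 1 in 20, or 3.1.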

How the results depend on the processing

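Of 165 values of the members' log2FC under other settings or with libraries left out, 153 kept their direction and side of the thresholds. The median log2FC of the members ran from 0.57 to 0.83 with 1 library left out. The number of members called ran from 2 to 6, with 6 without 24m replicate 1 (Cbln1, Cbln3, Gabra6, Zic2, Neurod1 and Etv1). Cbln1 was lost with DESeq2 (0.81) and without 6m replicate 2 (0.57), 24m replicate 2 (0.68) or both shallow libraries (0.49, a setting added after the data were seen). Cbln3 was lost with limma-voom (1.28) and is too scarce to be tested with a mean count over 20 or edgeR's own filter. Chn2 passed with library sizes alone (0.60). The log2FC of Reln turned to -0.0016 without 24m replicate 4 and reached 0.31 without 24m replicate 2. All tested genes called were 795 with a mean count over 20, where fewer genes were tested, 834 with DESeq2, and 988 to 1594 with 1 library left out. The other granule cell genes called were 1 with a mean count over 20, where 6 were tested, and 2 to 5 with 1 left out, with 5 without 24m replicate 4. The Purkinje cell genes called were 2 with DESeq2 and 3 to 5 with 1 left out. The cause of the DESeq2 differences was not tested. Calls were higher at 24m in 71.3% of cases with TMM, 84.7% with library sizes alone, 80.6% with a mean count over 20 and 59.2% with quantile normalization and limma-voom. Of the 8 genes closest to Cbln1, Cbln3 and Gabra6 by levels, 0 were among the 8 closest by deviations from the age means and 1 without 24m replicate 1, where that library was left out of the deviations. Libraries with the same replicate number did not deviate together (r of 0.065, -0.010, 0.0051 and -0.16). These values show no pairing by number but cannot exclude a pairing. A replicate block in the fit left 3 members and 1308 genes called. Depth limits Cbln3 most, at 1 to 4 counts in each young adult library.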
